A study of Saccharomyces cerevisiae with 4 samples.

Results

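The enzymes that make and remove inositol pyrophosphates, together with the vacuolar polyphosphate polymerase, form a group of 8 yeast genes: SIW14, DDP1, KCS1, VIP1, VTC1, VTC2, VTC3 and VTC4. The genes were chosen by function from the gene symbols of the probe annotation, with the mutant minus wild-type differences of these arrays already known, among them the high value of SIW14. Their differences between the groups are therefore given as a description, without a test. All 8 were measured, out of 5656 genes on the array with a probe set of their own, and all 8 had a mean signal above the pseudocount of 5.71 that was added before taking log2. They were read by 14 probe sets, of which 6 belong to VIP1 and 2 to VTC4.

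Inositol pyrophosphates are small signalling molecules that carry a diphosphate on an inositol ring. Kcs1 and Vip1 are the kinases that form this diphosphate, at different positions of the ring. Siw14 and Ddp1 are phosphatases that remove its outer phosphate. In budding yeast these molecules bind the SPX domains of phosphate-handling proteins, among them subunits of the VTC complex, which makes polyphosphate from ATP and moves it into the vacuole. When phosphate is scarce, the transcription factor Pho4 turns on the VTC genes along with genes for acid phosphatases and phosphate transporters.

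Total RNA came from 2 replicate cultures of a Saccharomyces cerevisiae strain whose histone H3 has lysines 4, 36 and 79 replaced by arginine, and from 2 replicate cultures of a wild-type strain that serves as control. All cultures grew in selective medium with galactose and then for 9 h in selective medium with glucose, which shuts off a wild-type H3 gene and leaves the mutant protein as the only H3 made in the mutant strain. Strain backgrounds, other alleles, plasmids and the histone gene deletions that either strain carries are not given in the sources used here. Each culture was read on 1 single-colour Affymetrix array, and the values are MAS5 signals in arbitrary units. A signal is an average over a culture, so fewer expressing cells and less RNA per cell cannot be told apart.

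The deposited mutant arrays had medians of 29.7 and 27.8, against 37.3 and 38.4 in the wild-type arrays, and all signals below were scaled to a common median. Scaled log2 values correlated across genes with r = 0.983 between the mutant arrays and r = 0.986 between the wild-type arrays. One H3 probe set, of a class with shared sequence, read 144 and 122 in the mutant arrays, against 483 and 497 in the wild-type arrays. No H3 probe set is known here to cover a mutated codon, so these values do not check the labels. GAL1, which is on in galactose and off in glucose, read 8.66 and 7.88 in the mutant arrays, against 5.54 and 3.56 in the wild-type arrays, near the pseudocount. GAL7 and GAL10, chosen to describe the same shift, were above the pseudocount. GAL7 read 22.3 and 27.1 in the mutant arrays, against 17.9 and 17.2 in the wild-type arrays. GAL10 read 14.1 and 19.5 in the mutant arrays, against 15.4 and 8.93 in the wild-type arrays, with overlapping groups. With 2 arrays a group, the number of arrays limits the precision of every value, and an exact permutation test of a single gene cannot give a two-sided p under 0.333.

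SIW14 had the largest difference of the group. It encodes a phosphatase of the tyrosine phosphatase superfamily that acts on the diphosphate formed by Kcs1. Its signal was 367 and 261 in the mutant arrays, against 94.8 and 93.7 in the wild-type arrays. The mutant arrays thus lay well above both wild-type arrays, and the mutant arrays also differed from each other more than the wild-type arrays did. Over the 4 pairings of a mutant with a wild-type array the ratio of signals ran between 2.75 and 3.92. The mean was 314 ± 75.6 in the mutant and 94.2 ± 0.817 in wild type (SD, n = 2 each), a log2 difference of 1.66 with a standard error of 0.20.

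DDP1 encodes a phosphatase of the Nudix family that acts on inositol pyrophosphates and on polyphosphate. Its signal was 44.1 and 43.4 in the mutant arrays, against 35.6 and 18.8 in the wild-type arrays. Both mutant arrays lay above both wild-type arrays, and the log2 difference was 0.64 (SE 0.25). The spread within wild type, with replicate 2 lower than replicate 1 by a log2 value of -0.75, was larger than the difference between the groups. Without wild-type replicate 2 the log2 difference of DDP1 was 0.26, and without wild-type replicate 1 it was 1.01.

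Wild-type replicate 2 was also low for several probe sets numbered close to that of DDP1. From wild-type replicate 1 to replicate 2 the log2 signal differed by -0.70 for PNS1, -1.28 for YRR1, -1.20 for GET4, -0.82 for MTR10 and -0.43 for SME1, but only by -0.09 for GCY1, whose number follows that of GET4. SEY1, which follows GET4 on the chromosome but whose probe set carries a distant number, differed by -0.71. By comparison, 4.19% of 7545 plain probe sets had wild-type replicate 2 below replicate 1 by more than 0.5 on the log2 scale. The part of this run of low values in the difference of DDP1 between the groups was not tested. On the mutant arrays YRR1 read 44.4 and 41.5, SEY1 71.7 and 71.4 and GET4 46.6 and 64.8.

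**Figure D1:**
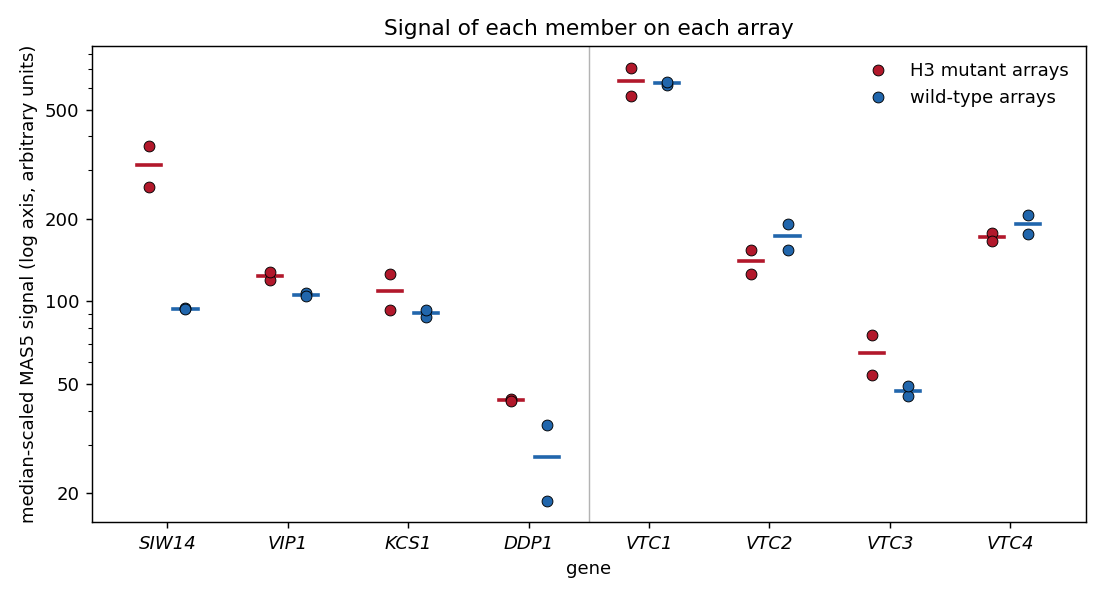
Median-scaled MAS5 signal (log axis, arbitrary units) of each member on the 2 H3 mutant arrays (red, left) and the 2 wild-type arrays (blue, right), with bars at the group means. SIW14 stood apart, at 367 and 261 against 94.8 and 93.7, while VTC1, VTC4 and KCS1 overlapped between the groups.

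The kinase genes showed smaller differences. The product of KCS1 forms the diphosphate that Siw14 acts on. KCS1 had signals of 125 and 93.1 in the mutant arrays, against 88.1 and 93.4 in the wild-type arrays. The groups overlapped, since mutant replicate 2 read just below wild-type replicate 2, and the log2 difference was 0.24 (SE 0.18). Without mutant replicate 1 it was 0.04, so the higher mean rests on that array.

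VIP1, the other kinase, carries a phosphatase-like domain beside its kinase domain. Its brightest plain probe set gave 120.1 and 128 in the mutant arrays, against 108 and 104 in the wild-type arrays. These arrays did not overlap, but the log2 difference was only 0.22 (SE 0.15). On the values as deposited it was -0.16, where the median of all genes was -0.32. Relative to the median of all genes, this probe set lay 0.16 higher as deposited and 0.20 higher after scaling. The other 5 probe sets of VIP1, 4 of them with a suffix that marks shared sequence, gave log2 differences between -0.33 and 0.22. The probe set with -0.33 averaged 2.94 in the mutant and 5.11 in wild type, below the pseudocount, and the probe sets of VIP1 thus gave both signs.

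The 4 VTC genes had no common direction. VTC1, a small membrane subunit of the polymerase, read 711 and 560.1 in the mutant arrays, against 612 and 633 in the wild-type arrays. The wild-type arrays lay between the mutant arrays, and the log2 difference was 0.02 (SE 0.20). VTC4, the catalytic subunit, read 178 and 167 in the mutant arrays, against 206 and 176 in the wild-type arrays. Its groups overlapped, with a log2 difference of -0.14 (SE 0.16), and its other probe set gave -0.02.

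VTC2 and VTC3 encode the related SPX subunits that take each other's place in different forms of the complex, and their signals lay on opposite sides. VTC2 read 126 and 154 in the mutant arrays, against 154 and 191 in the wild-type arrays. The higher mutant array came within a signal ratio of 0.998 of the lower wild-type array, so the groups were only just apart, and the log2 difference was -0.29 (SE 0.18). VTC3 read 75.7 and 54 in the mutant arrays, against 45.4 and 49.3 in the wild-type arrays. Both mutant arrays were higher, mainly through replicate 1, with a log2 difference of 0.40 (SE 0.19) that dropped to 0.17 without that array. On the values as deposited it was 0.04, where the median of all genes was -0.32. Relative to the median of all genes, VTC3 lay 0.36 higher as deposited and 0.38 higher after scaling.

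By the call used over all genes, limma with a Benjamini-Hochberg adjusted p under 0.05, 1 of the 8 genes was called higher in the mutant and 0 lower. Of all 5656 genes, 58 (1.03%) were called higher and 48 (0.849%) lower, while on the values as deposited 66 were called higher and 1065 lower. The gene called was SIW14, and nothing is read from this count, because the contrast was known when the group was formed. The call was absent when either mutant array was left out, where limma called 0 genes of the whole array (1510 and 2139 at an unadjusted p under 0.05 without mutant replicates 1 and 2), while SIW14 itself kept log2 differences of 1.41 and 1.90. Both mutant arrays lay above both wild-type arrays for 4 of the 8 genes and below for 1, while over all genes these shares were 28.1% and 27.2%. The median log2 difference was 0.44 over the 4 enzymes of inositol pyrophosphates and -0.06 over the 4 VTC genes, against 0.02 over all genes.

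Log ratios of 2 probe sets within an array are almost free of the array scaling, although the ratio itself is not a ratio of transcripts. For SIW14 over KCS1 the log2 ratio was 1.51 and 1.43 in the mutant arrays, against 0.10 and 0.00 in the wild-type arrays. The difference between the groups was 1.42. For SIW14 over VIP1 the ratio was 1.57 and 0.99 in the mutant arrays, against -0.17 and -0.15 in the wild-type arrays, a difference of 1.44. For SIW14 over DDP1 it was 2.90 and 2.44 in the mutant arrays, against 1.28 and 2.02 in the wild-type arrays, a difference of 1.02. None of these ratios overlapped between the groups. All of them hold SIW14, whose high value was known beforehand, so they describe the same difference again and nothing is read from their separation. For KCS1 over VIP1, the pair of kinases, the ratio was 0.06 and -0.44 in the mutant arrays, against -0.27 and -0.15 in the wild-type arrays, a difference of 0.02 with the groups overlapping. For VTC3 over VTC2 the ratio was -0.70 and -1.42 in the mutant arrays, against -1.65 and -1.84 in the wild-type arrays. The groups did not overlap, but the mutant arrays lay further from each other than mutant replicate 2 lay from the wild-type arrays.

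The position of SIW14 sets it apart from the other members. By the annotation of assembly R64 it lies on chromosome XIV directly beside HHT2, a gene for histone H3, and HHF2, a gene for histone H4, follows. The locus tags YNL032W for SIW14 and YNL031C for HHT2 place the genes on opposite strands with their 3' ends facing. None of the other 7 genes has a histone gene among its 2 nearest measured protein-coding genes on each side. The histone gene deletions of either strain are not given here. A strain difference at this locus and an effect of the H3 substitutions cannot be told apart. On the far side of SIW14 lie YNL033W and YNL034W, each read by a probe set that is also annotated to a second gene, YNL019C and YNL018C.

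These probe sets of YNL034W and YNL033W were also higher in both mutant arrays. The probe set of YNL034W and YNL018C read 29.9 and 29.8 in the mutant arrays, against 6.16 and 8.41 in the wild-type arrays. This was a log2 difference of 1.46 (SE 0.18), which missed the threshold when limma was fitted to each of the 9335 probe sets (adjusted p = 0.0523). The probe set of YNL033W and YNL019C read 14 and 13.4 in the mutant arrays, against 5.27 and 5.46 in the wild-type arrays, with a log2 difference of 0.81 (limma adjusted p = 0.0959). The histone H4 probe set of HHF2 and HHF1 had 0.72 (limma adjusted p = 0.183), and the brightest H3 probe set, with overlapping groups, had 0.45 (limma adjusted p = 0.619). The H3 probe sets, each annotated to both HHT2 and HHT1, did not share a direction. The shared-sequence one given above fell by 1.84 on the log2 scale in the same fit (limma adjusted p = 0.0364). A dim one had -0.05. By number, the falling and the dim probe set lie between those of FLR1 and IPP1, around HHT1. The brightest one lies next to that of SIW14.

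Further out the values were mixed. KTR5, a gene of a mannosyltransferase family, read 168 and 119 in the mutant arrays, against 82.2 and 92.6 in the wild-type arrays. Its log2 difference of 0.66 did not pass over genes (limma adjusted p = 0.115). CRZ1 and SAM50, the next genes with a probe set, had 0.20 and 0.22 with overlapping groups. On the other side YNL035C had 0.19 with overlapping groups. Past it, NCE103, a carbonic anhydrase gene, read 732 and 506 in the mutant arrays, against 193 and 449 in the wild-type arrays, and IDH1 read 180 and 235 in the mutant arrays, against 118 and 177 in the wild-type arrays. Their log2 differences of 1.03 and 0.49 did not pass (limma adjusted p = 0.176 and 0.26), and that of NCE103 was smaller than the 1.20 between its wild-type arrays. Both genes were named after their values were seen. Around the other H3 and H4 gene pair, HHT1 and HHF1, the measured neighbours had log2 differences of 0.41 for FLR1, -0.20 for IPP1 and 0.09 for the dim YBR013C, which did not pass (limma adjusted p = 0.283, 0.64 and 0.742).

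**Figure D2:**
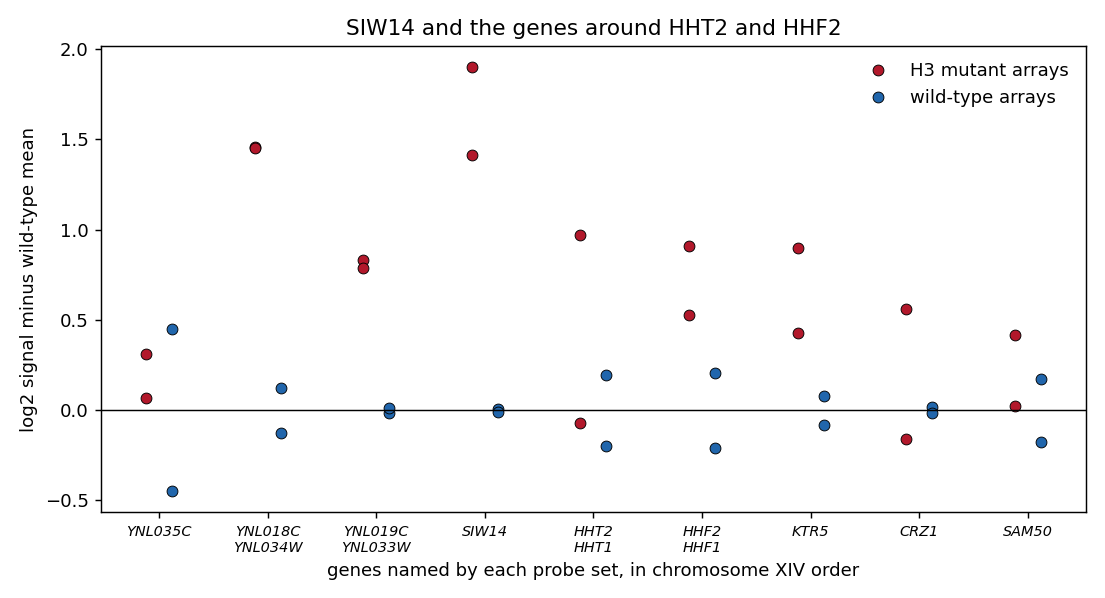
Log2 signal of each array minus the wild-type mean for SIW14, the histone genes HHT2 and HHF2 and their neighbours on chromosome XIV, in gene order (H3 mutant arrays in red, left, and wild-type arrays in blue, right). The mutant arrays lie above both wild-type arrays for the probe sets of YNL034W, YNL033W, SIW14, HHF2 and KTR5, and they overlap for YNL035C, HHT2, CRZ1 and SAM50.

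The median log2 difference of the 4 nearest measured protein-coding genes was 0.77 around SIW14 and 0.62 around DDP1. Around the other 6 members it lay between -0.32 and 0.28. Beside the 7 members other than SIW14, 27 neighbours had a gene-level test in limma, and none passed (8 at an unadjusted p under 0.05, where 23.2% of all genes had one). The neighbours of SIW14 have only probe sets shared with another gene, and their values are those given above. Probe sets with successive numbers were not independent on these arrays. Across 6963 such pairs the log2 difference between the wild-type arrays correlated with r = 0.49, that between the mutant arrays with r = 0.38 and that between the groups with r = 0.28. Probe set numbers follow gene order along much of a chromosome. Around DDP1 the orders part. There SEY1, near on the chromosome and distant in number, had -0.71 between the wild-type arrays and GCY1, near in number, had -0.09. These are single probe sets, and which order the low values follow was not tested. From IDH1 to KTR5, around SIW14, the orders run together. Their part in the difference of SIW14 was not tested. SIW14 itself and the probe sets of YNL033W and YNL034W differed between the wild-type arrays by log2 values of -0.02, 0.03 and 0.25. Others of the same stretch differed more, with 0.56 for IDH1, 1.20 for NCE103 and 0.90 for YNL035C. The probe sets of HHT2, HHF2 and KTR5 had -0.39, -0.42 and 0.16. Between the mutant arrays SIW14, HHT2, HHF2 and KTR5 were higher in replicate 1 by 0.49, 1.04, 0.38 and 0.47, and YNL033W and YNL034W by 0.04 and 0.004.

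**Figure D3:**
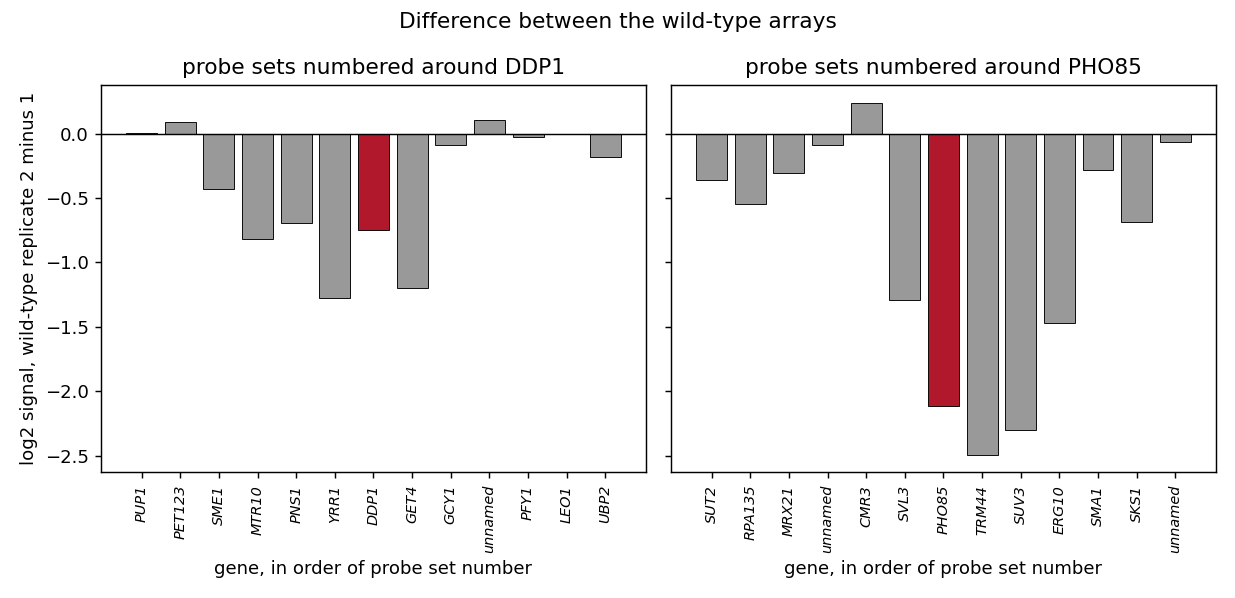
Log2 signal of wild-type replicate 2 minus wild-type replicate 1 for probe sets numbered around those of DDP1 (left panel) and PHO85 (right panel), with the named gene in red. Several probe sets numbered close to each gene also read low on wild-type replicate 2, and the named genes had -0.75 (DDP1) and -2.12 (PHO85).

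Genes that act beside the group were taken from 5 lists, which were written with earlier results of these data known. Their calls and p-values are therefore a description too. Of the 38 measured list genes 2 rose (PHO84 and PHO5), 1 fell (OCA4) and 35 did not pass over all genes. Of all genes 1.03% were called higher and 0.849% lower. The median log2 difference of the list genes was 0.01. The relatives of Siw14, itself also called Oca3, are the other Oca proteins, most of which resemble tyrosine phosphatases. Of 5 measured relatives 1 fell and 0 rose, where 0.849% and 1.03% of all genes were called lower and higher. By limma 3 had an unadjusted p under 0.05 (OCA2, OCA4 and OCA5, in both directions), against 23.2% of all genes. OCA4 read 9.61 and 6.29 in the mutant arrays, against 22.2 and 27.7 in the wild-type arrays. The groups were clearly apart, with a log2 difference of -1.17 ± 0.19 (SE; limma adjusted p = 0.0379), in the direction opposite to SIW14. The mutant signals of OCA4 were close to the pseudocount, so this value understates the ratio of signals. The call for OCA4 was lost when each probe set was fitted (limma adjusted p = 0.0834). It was also lost without either mutant array, as was every call over the array. The log2 difference was then -1.35 without mutant replicate 1 and -0.997 without mutant replicate 2. OCA2 had 0.53 (limma adjusted p = 0.15), OCA5 -0.39, OCA1 0.21 and OCA6 0.07.

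None of the 8 genes of the inositol phosphate route passed limma in either direction (median 0.01, 1 at an unadjusted p under 0.05, against 23.2% of all genes). This route takes up or makes inositol and turns it into the inositol hexakisphosphate that Kcs1 and Vip1 use. ITR2, a minor inositol transporter, had signals of 166 and 115 in the mutant arrays, against 87.6 and 69.8 in the wild-type arrays, and a log2 difference of 0.78 (SE 0.21, limma adjusted p = 0.102). INM1, an inositol monophosphatase, had -0.33 (limma adjusted p = 0.333). The kinases ARG82 and IPK1, which supply the substrate, had 0.28 and 0.01, and the phospholipase gene PLC1 had -0.33. INO1, the first enzyme of inositol synthesis, read 59.7 and 66.3 in the mutant arrays, against 59.6 and 58.8 in the wild-type arrays, a log2 difference of 0.08.

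None of the 6 genes for polyphosphate breakdown and partners passed limma (median 0.04, 1 at an unadjusted p under 0.05, against 23.2% of all genes). PPX1, a cytosolic exopolyphosphatase, read 93.2 and 103 in the mutant arrays, against 141 and 164 in the wild-type arrays. The groups did not overlap, and the log2 difference of -0.61 (SE 0.16) missed the threshold (limma adjusted p = 0.0908). The vacuolar polyphosphatase genes PPN1 and PPN2 had 0.18 and -0.07. VTC5, a further subunit of the polymerase complex, had 0.14, and PHO91, a vacuolar phosphate exporter with an SPX domain, had 0.21 (limma adjusted p = 0.558). IPP1, the inorganic pyrophosphatase, read 1196 and 1307 in the mutant arrays, against 1435 and 1435 in the wild-type arrays.

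Among 9 genes for SPX proteins and phosphate signalling none passed limma (median 0.01, 3 at an unadjusted p under 0.05, against 23.2% of all genes). PHO85, the cyclin-dependent kinase of the pathway, read 127 and 117 in the mutant arrays, against 143 and 28.5 in the wild-type arrays. Its log2 difference of 0.84 (SE 0.58, limma adjusted p = 0.432) turned to -0.22 without wild-type replicate 2, which was low for a run of probe sets numbered next to it. PHO80, the cyclin partner, had 0.63 (limma adjusted p = 0.0979), with 34.3 and 29.2 in the mutant arrays, against 19.9 and 17.1 in the wild-type arrays. PHO81, an SPX protein that inhibits this kinase, had -0.09, and the transcription factor genes PHO4 and PHO2 had -0.26 and 0.19.

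The last list held targets of Pho4. Of 10 measured targets 2 rose and 0 fell (median 0.10), where 1.03% and 0.849% of all genes were called higher and lower. By limma 2 had an unadjusted p under 0.05, against 23.2% of all genes. PHO11 and PHO12 share a probe set and were not tested. PHO84, a high-affinity phosphate transporter, read 181 and 120 in the mutant arrays, against 32.6 and 36.2 in the wild-type arrays (log2 difference 1.93, limma adjusted p = 0.0202). PHO5, an acid phosphatase, read 350.4 and 248 in the mutant arrays, against 102 and 115 in the wild-type arrays (log2 difference 1.40, limma adjusted p = 0.0338). PHM8, PHO8 and SPL2 had 0.34, 0.22 and 0.31, and SPL2 signals of 6.18 and 4.45 in the mutant arrays and 2.68 and 3.64 in the wild-type arrays were near or below the pseudocount. PHO89 had -0.33 and PHO86 -0.06. Beside these targets the VTC genes, which belong to the same regulon, had log2 differences between -0.29 and 0.40. The calls for PHO84 and PHO5 were absent when either mutant array was left out, as was every call over the array. Their log2 differences were then 1.65 and 1.16 without mutant replicate 1, and 2.22 and 1.65 without mutant replicate 2. The call for PHO5 was also absent when each probe set was fitted (limma adjusted p = 0.0638).

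**Figure D4:**
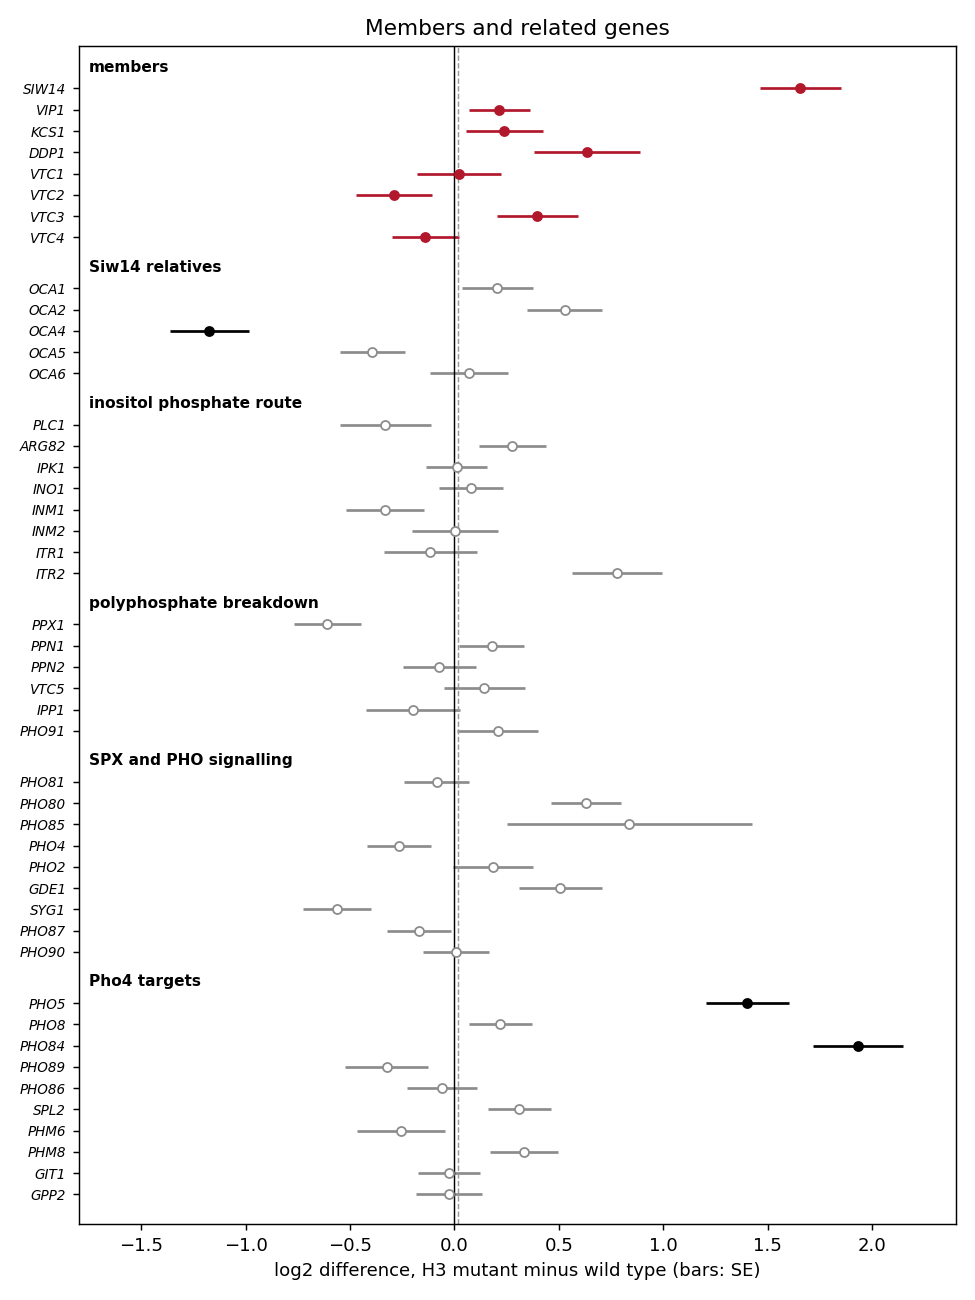
Log2 difference, H3 mutant minus wild type, with standard error bars, for the 8 members (red) and the 38 measured genes of 5 lists. Black points passed an adjusted p under 0.05 (OCA4 lower, PHO5 and PHO84 higher), open points did not, and the dashed line is the median of all genes, 0.02.

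The genes most like SIW14 in their pattern over the 4 arrays were found by the Euclidean distance between log2 values, each taken minus the wild-type mean, among genes with a mean signal above the pseudocount. The nearest were YMR085W (distance 0.17), SAS4 (0.25), which encodes a subunit of an H4 acetyltransferase complex, and YOR062C (0.26). YMR085W read 15.9 and 11.4 in the mutant arrays, against 0.357 and 0.954 in the wild-type arrays. It exceeded the pseudocount only through the mutant arrays, and its log2 difference and distance depend on the pseudocount. SAS4 read 76.9 and 61.9 in the mutant arrays, against 17.6 and 21.5 in the wild-type arrays. YOR062C read 187 and 120.2 in the mutant arrays, against 52.3 and 46.6 in the wild-type arrays. In these genes, as in SIW14, mutant replicate 1 was the higher of the mutant arrays. With 4 arrays in 2 groups, such likeness mostly reflects a difference of similar size.

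Array scaling moved every member in the same way. On the values as deposited the median log2 difference of all genes was -0.32, in place of 0.02. The differences there were 1.27 for SIW14, 0.30 for DDP1 and 0.04 for VTC3, and those of KCS1 (-0.14), VIP1 (-0.16) and VTC1 (-0.37) lay below 0. VTC2 had -0.67 and VTC4 -0.52. Relative to the median of all genes, SIW14 lay 1.59 higher as deposited and 1.64 higher after scaling.

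**Figure D5:**
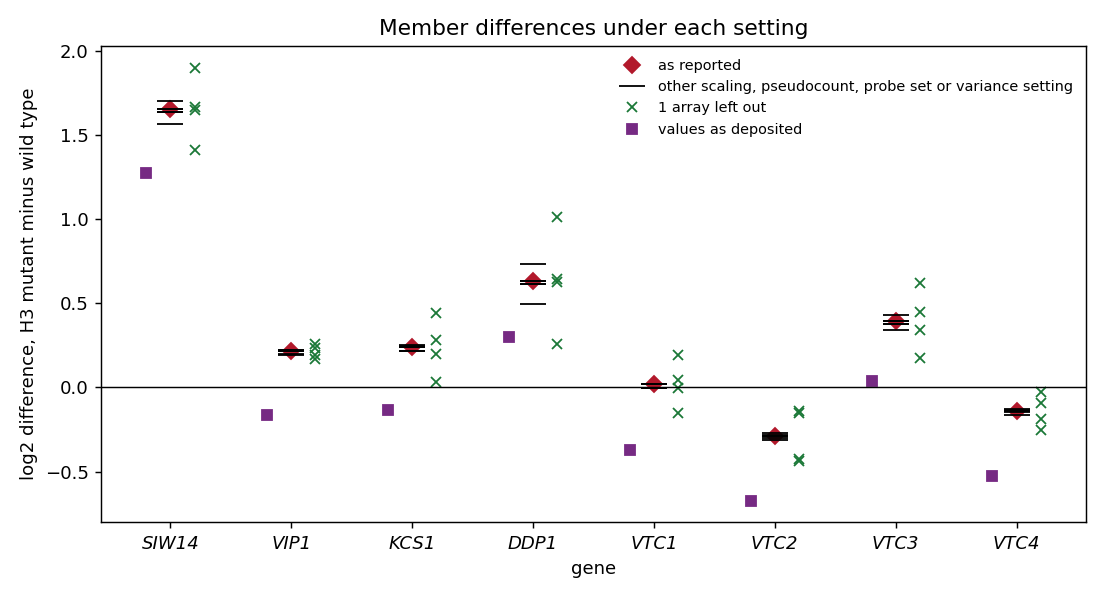
Log2 difference, H3 mutant minus wild type, of each member as reported (diamonds), under other scalings, pseudocounts, probe set rules and variance settings (bars), with 1 array left out (crosses) and on the values as deposited (squares). SIW14 stays between 1.27 and 1.90, and DDP1 spreads most when an array is left out, between 0.26 and 1.01.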

How the data were processed

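The authors deposited 1 MAS5 signal intensity per probe set and array, on a linear scale, per the submitters' processing notes, which name no version. In the mutant columns 100% of values are whole multiples (tolerance 0.01) of 0.0849 and 0.07 in place of 0.1, so these arrays carry a further constant. Here each array was scaled to a common median, 5.71 (the 20th percentile) was added and log2 was taken. From 9335 probe sets, 1 was used for each of 5656 genes with a single symbol: without a shared-sequence suffix where possible, then the brightest. Groups came from sample titles. Mutant minus wild type was fitted with limma 3.58.1 in R 4.3.3 (eBayes with trend, two-sided), with adjusted p under 0.05 over all genes (Benjamini-Hochberg). The fit was also run on simulated data, whose noise was independent between genes, unlike that of these arrays. Nothing is read from that run. Named genes were the 8 members, list genes past the threshold, the 2 largest differences of each list, genome neighbours and the 3 genes most like SIW14, and other list genes were named for their role after their values were seen. Members, lists and neighbours were chosen with earlier results of these data known. Names and gene order follow assembly R64. No sequences were used here. Alternatives changed scaling, pseudocount, filter, probe sets, variance model, block and arrays.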

Additional observations from a re-analysis of the deposited data

How the results depend on the processing

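The log2 difference of SIW14 was 1.27 on the values as deposited and between 1.56 and 1.70 under the other settings with all arrays. It lay between 1.41 and 1.90 with an array left out. The number of members called higher, 1, became 2 with the replicate block and ran between 0 and 2 with an array left out (DDP1 is the second), and 1 was called lower as deposited (VTC2). Deviations of same-numbered arrays from their group means correlated with r = -0.02, and the labels do not say whether such arrays share a day. The replicate block left the log2 differences unchanged. It changed the standard errors, from 0.15 to 0.21 for VIP1 and from 0.58 to 0.21 for PHO85, and more genes were called. Genes called higher numbered 38 when scaled to the trimmed mean, 92 without dim genes, 11 over every probe set, 159 with robust eBayes and 425 with the replicate block, and between 0 and 196 with an array left out. Genes called lower numbered 1065 as deposited, 21 over every probe set, 30 without trend, 118 with robust eBayes and 283 with the replicate block, and between 0 and 85 with an array left out. Of the 38 list genes, 1 was called higher over every probe set and 5 with the replicate block, and between 0 and 4 with an array left out. List genes called lower numbered 6 as deposited, 0 over every probe set and 2 with the replicate block, and between 0 and 1 with an array left out. PHO91 turned to -0.18 as deposited, to -0.026 without mutant replicate 1 and 0.44 without mutant replicate 2, and PHO85 to -0.22 without wild-type replicate 2. The causes were not tested. Dim genes such as SPL2 are limited by signal over background.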
